A study of Mus musculus with 2 samples.

Results

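Mitochondrial ribosomal proteins were taken as the probe sets whose only annotated gene symbol begins with Mrpl or Mrps followed by a digit, a rule that uses names and no measured value. It gave 156 probe sets of 76 genes, out of 45037 probe sets without the array's controls and 18193 named genes. Of these genes, 47 (104 probe sets) are named for the large subunit and 29 (52 probe sets) for the small subunit. RNA of LM8, a mouse osteosarcoma subline labelled as highly metastatic, was set against RNA of Dunn, its parental line labelled as non-metastatic. Both lines were grown untreated in the same medium with serum, and each was hybridised to 1 Affymetrix array. Each group is thus 1 established cell line and 1 array: there was no replicate, no p-value is given, and every difference describes this pair of arrays.

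The mitochondrial ribosome translates the few proteins still encoded by mitochondrial DNA, all of them subunits of the respiratory complexes or of the ATP synthase. Its RNAs come from the mitochondrial genome, whereas all its proteins are encoded in the nucleus, made in the cytosol and imported. The small subunit decodes the messenger RNA, and the large subunit joins the amino acids and passes the new chain out through a tunnel next to the inner membrane. Many of its proteins descend from those of the bacterial ribosome, and others were added in mitochondria.

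Values are probe set intensities from the MAS5 program, in arbitrary units on a common array mean. A floor was set at the median signal of the array, 18.96 in LM8 and 21.06 in Dunn, and probe sets above the floor in either line counted as measured. Each gene took its brightest measured probe set, and differences are given as log2 of LM8 over Dunn. Of 10 osteoblast lineage markers, 8 had a probe set of their own and 7 were measured. Among the measured ones were Col1a1, the main bone collagen gene (3537 in LM8 and 2399 in Dunn), Alpl (1739 in LM8 and 1266 in Dunn) and the osteoblast transcription factor gene Sp7 (743 in LM8 and 687 in Dunn). Of the other 4 measured, Ibsp (96.6 in LM8 and 239 in Dunn, a log2 ratio of -1.31) and Pth1r (492 in LM8 and 1115 in Dunn, -1.18) were lower in LM8. Col1a2 (-0.26) and Sparc (-0.00, near equal) lay below 0 on their brightest probe sets. Their other probe sets reached 1.73 for Col1a2 and 0.63 for Sparc. Of 10 macrophage markers, 7 were measured and all 7 had lower signals in LM8 on their brightest probe sets. Csf1r (-1.49) had another probe set at 0.48. The summed signal was 485 in LM8 and 976 in Dunn, most of it from Fcer1g (387 in LM8 and 716 in Dunn). Of the 7, the macrophage genes Lyz2, Tyrobp, Cd68 and Adgre1 were below the floor in LM8. These counted as measured through Dunn alone, so they could only come out lower in LM8. Of all 11830 measured genes, 6545 had a log2 ratio below 0. Endothelial, epithelial, lymphoid, and muscle or fat markers with a probe set of their own were mostly below both floors, with 3 of 7, 3 of 7, 2 of 6 and 2 of 6 measured. In such bulk RNA, fewer cells of a type and less RNA per cell cannot be told apart, and the part of these markers in the results below was not tested.

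The genes of the mitochondrial ribosome had close to equal signals in the metastatic subline and its parent, in both subunits. All 76 genes were measured, each above both floors. Their signals ran between 98.1 and 1868 in LM8, with a median of 557, and between 119 and 2758 in Dunn, with a median of 549.9. Summed over the 76 genes, the signal was 49858 in LM8 and 49012 in Dunn. The log2 ratio lay above 0 for 37 genes and below 0 for 39, and its median was -0.01, where the median of all 11830 measured genes was -0.08.

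At least 1.5-fold higher in LM8 were 10 of the 76 genes (13.2%), beside a background of 15.3% of all measured genes, so this share was near that of genes in general. At least 1.5-fold lower were 4 genes (5.26%), beside 20.3% of all measured genes. At the 2-fold limit 1 gene was higher (Mrpl47) and none was lower, where 6.51% of all measured genes were higher and 8.84% lower. The remaining 62 genes lay within 1.5-fold. The SD of the log2 ratio over the 76 genes was 0.44, against 0.78 over all measured genes. All 76 genes also lay above the 75th percentile of signal on at least 1 array. Among the 7342 genes that bright, 14.5% were 1.5-fold higher and 15.2% lower, 5.13% were 2-fold higher and 5.41% lower, and the SD was 0.66.

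**Figure D1:**
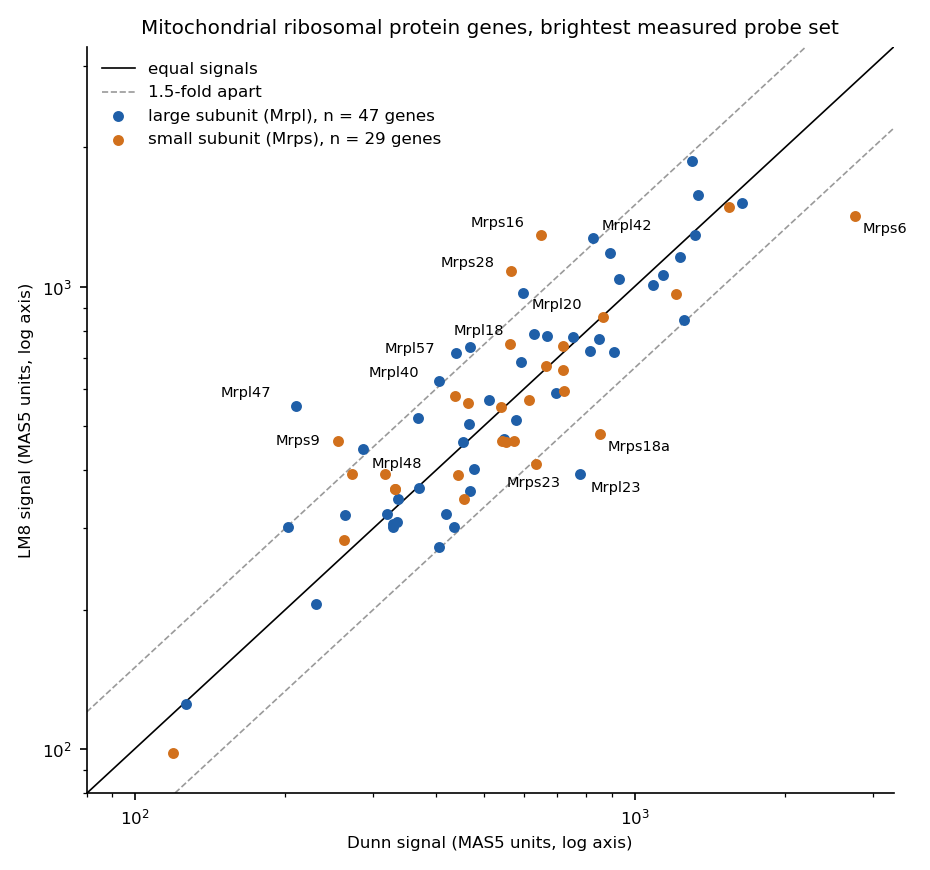
LM8 signal (vertical, log axis) against Dunn signal (horizontal, log axis) of the 76 genes in MAS5 units, 1 point per gene, large subunit in blue and small subunit in orange. Most points lie between the dashed lines that mark 1.5-fold; the 14 genes outside them are named, 10 above the upper line and 4 below the lower one.

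The large and the small subunit had nearly the same middle value. The 47 Mrpl genes had a median log2 ratio of -0.01 (SD 0.43), with 23 above and 24 below 0. The 29 Mrps genes also had a median of -0.01 (SD 0.47), with 14 above and 15 below 0, so that the medians differed by -0.002, large minus small. Past 1.5-fold in the large subunit lay 7 genes (14.9%) that were higher in LM8 and 1 (2.13%) that was lower. In the small subunit 3 (10.3%) were higher and 3 (10.3%) lower, beside 15.3% and 20.3% of all measured genes. Gene names do not always give the place in the ribosome: the products of Mrps18a and Mrps30 sit in the large subunit, and that of Mrps36 is known as a subunit of the oxoglutarate dehydrogenase complex. With genes placed by structure, the medians were -0.02 for 49 large subunit genes and 0.00 for 26 small subunit genes. When the measured probe sets of a gene were averaged, they were 0.13 apart, with -0.11 for the small subunit.

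Around the exit of the peptide tunnel, where the new chain leaves the large subunit, lay both the highest and the lowest of all 76 log2 ratios. Mrpl47, the counterpart of bacterial L29, had a signal of 552 in LM8 and 209 in Dunn, a log2 ratio of 1.40 or 2.64-fold. A dimmer Mrpl47 probe set had 37.5 in LM8 and 28.9 in Dunn (0.37), and the third was below both floors. The 2 measured Mrpl47 probe sets thus pointed the same way with unequal size. Mrpl23, whose bacterial counterpart L23 stands beside L29 at the exit, had 394 in LM8 and 779 in Dunn, a log2 ratio of -0.98 on its single probe set. Neighbours in the structure thus stood at opposite ends. Of the 8 tunnel exit genes, 1 (12.5%) was at least 1.5-fold higher and 1 (12.5%) lower, beside 15.3% and 20.3% of all measured genes.

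The other 6 tunnel exit genes lay within 1.5-fold. Mrpl39 had 1868 in LM8 and 1303 in Dunn (0.52), and its second probe set gave a similar ratio of 0.48. Mrpl44, whose product resembles RNase III, had 273 in LM8 and 406 in Dunn (-0.57), and all 4 of its probe sets were below 0, between -0.75 and -0.38. Mrpl45, which ties the ribosome to the inner membrane, was near equal with 367 in LM8 and 371 in Dunn (-0.01). Mrpl22 (0.23), Mrpl24 (0.21) and Mrpl17 (-0.03) were also near 0, and the 8 genes had a median of 0.10.

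The central protuberance, the crown of the large subunit that faces the head of the small one, had the highest median of the 6 sites with several genes, 0.28 over 8 genes, with 3 genes (37.5%) at least 1.5-fold higher and none lower, beside 15.3% and 20.3% of all measured genes. Mrpl18 had 739 in LM8 and 469 in Dunn (0.66), Mrpl48 had 446 in LM8 and 286 in Dunn (0.64), and Mrpl40 had 624 in LM8 and 407 in Dunn (0.62). Of these, only Mrpl48 had further measured probe sets, with a ratio of 0.50 on one and of 0.26 on another where Dunn was at its floor. Mrpl58, also known as Ict1 and able to release peptides from stalled ribosomes, had a log2 ratio of 0.40 on its brightest probe set and -0.37 on the other. Mrpl27 (0.15), Mrpl46 (0.05), Mrpl38 (-0.12) and Mrpl55 (-0.17) completed the site. Its median was 0.09 when probe sets were averaged and 0.04 with the probe set nearest to no difference, so the height of this site rests on the choice of probe set.

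In the GTPase stalk, which recruits the elongation factors, Mrpl10 (-0.25), Mrpl11 (-0.14), Mrpl12 (-0.12) and Mrpl54 (-0.10) all lay slightly below 0 on their brightest probe sets. Mrpl11 was lower on its other measured probe sets, with 587 in LM8 and 829 in Dunn (-0.50) on one and -0.38 on another. Mrpl12, which is also known to bind the mitochondrial RNA polymerase, had 1515 in LM8 and 1643 in Dunn. Mrpl1, of the stalk by which spent transfer RNA leaves, had 125 in LM8 and 127 in Dunn (-0.02). On the brightest probe sets these sites therefore showed near equal signals, which for Mrpl11 rests on the choice of probe set.

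Elsewhere in the large subunit, 3 of 28 genes (10.7%) passed the 1.5-fold limit upwards, beside 15.3% of all measured genes. Mrpl57 had 719 in LM8 and 438 in Dunn (0.71), with 0.23 on a dim second probe set. Mrpl20, the counterpart of bacterial L20, which helps to fold the ribosomal RNA during assembly, had 969.8 in LM8 and 598 in Dunn (0.70). Mrpl42 had 1271 in LM8 and 827 in Dunn (0.62), and its other probe set was below both floors. Just under the limit stood Mrpl37 with 301 in LM8 and 202 in Dunn (0.57). Mrpl43 (846 in LM8 and 1253 in Dunn, -0.57) and Mrpl19 (302 in LM8 and 434 in Dunn, -0.52) followed Mrpl23 and Mrpl44 among the lowest Mrpl genes, short of 1.5-fold. Mrps18a, placed in the large subunit by structure, was lower than these at -0.83 and is described with its paralogues.

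For a split by ancestry, genes were kept in the subunit of their name. The 19 large subunit genes classed as without a bacterial counterpart had a median of 0.28, with 12 above 0. Of them 4 (21.1%) were at least 1.5-fold higher and none lower. The 28 classed as having a bacterial counterpart had a median of -0.11, with 11 above 0, 3 (10.7%) higher and 1 (3.57%) lower. Of all measured genes, 15.3% were higher and 20.3% lower. Among genes named for the small subunit the order was the other way: 11 mitochondria-specific genes had a median of -0.06 and 18 of bacterial descent a median of 0.00. The 11 include Mrps30 and Mrps36, and the 18 include Mrps18a, whose products are not in the small subunit. Over both subunits the medians were 0.05 for 30 mitochondria-specific genes and -0.07 for 46 bacterial ones, 0.12 apart, which is small beside the SDs of 0.39 and 0.47 over these genes.

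**Figure D2:**
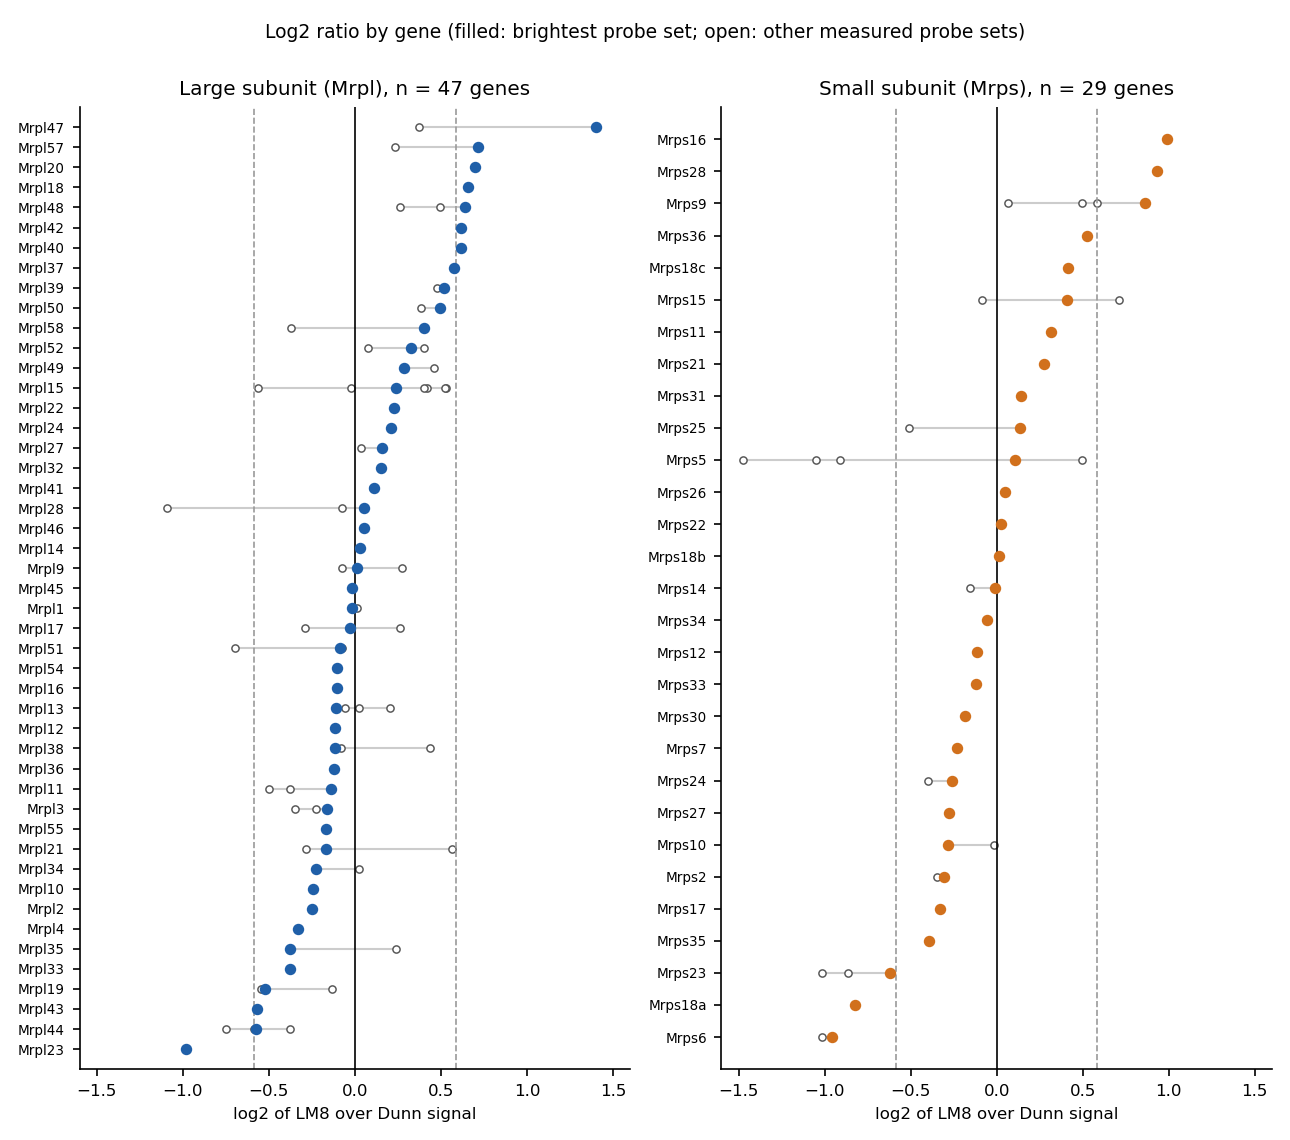
Log2 of LM8 over Dunn signal (horizontal) for every gene, large subunit on the left and small subunit on the right, ordered by the brightest probe set (filled); open circles are the gene's other measured probe sets, and dashed lines mark 1.5-fold. Mrpl47 at 1.40 and Mrpl23 at -0.98 are the ends of the large subunit, and Mrps16 at 0.99 and Mrps6 at -0.96 those of the small one.

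Among genes named for the small subunit, Mrps16, Mrps28 and Mrps9 had signals at least 1.5-fold higher in LM8, and Mrps6, Mrps18a and Mrps23 at least 1.5-fold lower. Mrps16, a gene whose human counterpart is mutated in a mitochondrial disease, had 1291 in LM8 and 651 in Dunn (0.99). Mrps28 had 1082 in LM8 and 566 in Dunn (0.93). Both were measured by a single probe set. Mrps9, the counterpart of a bacterial head protein that touches the transfer RNA, had 464 in LM8 and 255 in Dunn (0.86). Its other probe sets gave 0.58, 0.49 and 0.07, all above 0 and all under 1.5-fold.

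Mrps6 had 1422 in LM8 and 2758 in Dunn (-0.96), and a second probe set had 735 in LM8 and 1484 in Dunn (-1.01). This gene and Mrps23 were the only ones of the 14 past the limit with more than 1 measured probe set and every one of them past it. Mrps23 had 413 in LM8 and 634 in Dunn (-0.62), and its other probe sets gave -0.87 and -1.02. Both genes were thus lower in LM8 on all their measured probe sets. The products of Mrps6 and Mrps23 lie in the body and platform, whose 18 genes had a median of 0.03. Of these 18, 2 (11.1%) were at least 1.5-fold higher and 2 (11.1%) lower, beside 15.3% and 20.3% of all measured genes.

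The 3 paralogues of Mrps18 did not move together. Mrps18a, which sits in the large subunit, had 479.9 in LM8 and 851 in Dunn (-0.83). Mrps18b had 672 in LM8 and 666 in Dunn (0.01), and Mrps18c had 751 in LM8 and 563 in Dunn (0.42). Each was measured by a single probe set. In the head of the small subunit, 6 of 8 genes lay below 0 and the median was -0.18, with Mrps35 the lowest (346 in LM8 and 455 in Dunn, -0.39) and Mrps9 the highest. Mrps12, a protein of the decoding centre, was near equal with 568 in LM8 and 615 in Dunn (-0.11). Mrps36 had 392 in LM8 and 272 in Dunn (0.53).

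Without replicate arrays, the probe sets of a gene gave the only second look at it, one that reflects technical and isoform differences. Of the 156 probe sets, 139 were measured and 17 were below both floors. Among the 36 genes measured by 2 or more probe sets, the ratios had 1 sign in 22 and mixed signs in 14, and in none did probe sets oppose each other by 1.5-fold each way. The median SD between probe sets was 0.19 for these genes and 0.30 for the 5521 such genes on the whole array. Of the 14 genes past 1.5-fold, 8 rested on a single measured probe set.

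In 4 genes the measured probe sets spanned more than 1 on the log2 scale. Mrps5 was near equal on its brightest probe set (282 in LM8 and 262 in Dunn, 0.11). Its dimmer ones ran between -1.48 (31.3 in LM8 and 87.0 in Dunn) and 0.50 (75.3 in LM8 and 53.4 in Dunn). Mrpl28 was near equal on 2 probe sets (0.05 and -0.08) and lower on the third, with 215 in LM8 and 457 in Dunn (-1.09). Mrpl15, with 8 probe sets, had ratios between -0.56 and 0.53 over the 7 measured, the lowest on a dim one with 32.0 in LM8 and 47.3 in Dunn. Mrpl47 was the last of the 4. Some of these probe sets have suffixes by which the maker marks possible matches to other transcripts.

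The genes around the mitochondrial ribosome were taken from lists of its other proteins, its helpers and its products. Proteins of the mitochondrial ribosome under other names lay above 0 in 4 of 4 measured genes, with a median of 0.30. Of all 11830 measured genes, 5285 lay above 0. Chchd1 had 1354 in LM8 and 873 in Dunn (0.63), Dap3, which binds GTP in the small subunit, had 790.1 in LM8 and 628 in Dunn (0.33), and Gadd45gip1 (0.27) and Ptcd3 (0.04) followed. Of these, only Chchd1 passed 1.5-fold.

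Assembly factors of the ribosome included more lower than higher genes, with 6 of 29 measured genes at least 1.5-fold lower in LM8, 1 higher and a median of -0.17. The lower share of 20.7% was close to the 20.3% of all measured genes. The higher share was 3.45%, beside 15.3% of all measured genes. Rpusd4, a pseudouridine synthase gene, had 71.6 in LM8 and 153 in Dunn (-1.10). Tfb1m, which methylates the small subunit's RNA, had 178 in LM8 and 343 in Dunn (-0.95), and -1.36 on its second probe set. The RNA methyltransferase genes Mrm2 (-0.85) and Mrm1 (-0.79) and the genes Dhx30 (-0.81) and Mterf4 (-0.75) made up the 6; Mrm1, Dhx30 and Mterf4 were named after their values were seen. Gtpbp10, a GTPase gene, was higher with 239 in LM8 and 133 in Dunn (0.85).

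Translation factors had a median of 0.06, with 3 of 15 measured genes (20%) at least 1.5-fold higher, near the 15.3% of all measured genes, and none lower, beside 20.3%. Mtrf1l, a release factor gene, had 122 in LM8 and 58.7 in Dunn (1.06). Gfm1, the gene of elongation factor G1, had 411 in LM8 and 218 in Dunn (0.91), but -0.13 on its second probe set. Pnpt1, an RNA-degrading enzyme gene on this list, had 241 in LM8 and 145 in Dunn (0.73), and the initiation factor gene Mtif2 had 156 in LM8 and 209 in Dunn (-0.43). Of 19 measured genes for mitochondrial tRNA charging, 2 (10.5%) were higher and 3 (15.8%) lower by 1.5-fold, with a median of 0.16. Aars2 was at least 2.90-fold higher, with 61.0 in LM8 and Dunn below its floor, and Ears2 was lower with 50.8 in LM8 and 97.6 in Dunn (-0.94). Vars2 had 45.6 in LM8 and 87.1 in Dunn (-0.93) and Cars2 had 120.5 in LM8 and 72.2 in Dunn (0.74), each with a further probe set of the opposite sign.

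Genes of mitochondrial DNA maintenance and transcription had 4 of 12 (33.3%) at least 1.5-fold lower in LM8, none higher, and a median of -0.23, where 20.3% of all measured genes were lower and 15.3% higher. Twnk, the mitochondrial helicase gene, had 149.9 in LM8 and 303 in Dunn (-1.01). Tefm, an elongation factor gene of mitochondrial transcription, was lower with 128 in LM8 and 242 in Dunn (-0.92). Tfb2m, which starts that transcription, had 254 in LM8 and 468 in Dunn (-0.88), and Top1mt, a topoisomerase gene, 154 in LM8 and 236 in Dunn (-0.62). Tfam, which packs the mitochondrial genome, was near equal with 400.2 in LM8 and 389 in Dunn (0.04). The single probe set for a mitochondrially encoded gene, ND5, had 1244 in LM8 and 2622 in Dunn (-1.08).

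Among 10 measured regulators of mitochondrial biogenesis the median was -0.00. At least 1.5-fold higher was 1 gene (10%) and lower were 3 (30%), beside 15.3% and 20.3% of all measured genes. Gabpb2, which encodes a partner of the ETS factor Gabpa, was the higher one with 259 in LM8 and 130.1 in Dunn (0.99), and the lowest of its 4 measured probe sets gave 0.15. Myc was lower with 768 in LM8 and 1404 in Dunn (-0.87), and Esrra (69.3 in LM8 and 116 in Dunn, -0.75) had a second probe set at 0.27. The coactivator gene Ppargc1b was the third, with 54.9 in LM8 and 83.8 in Dunn (-0.61). Nrf1, which encodes an activator of many such genes, had 107 in LM8 and 98.2 in Dunn (0.12), and Gabpa, the DNA-binding part of that ETS factor, 326 in LM8 and 357 in Dunn (-0.13).

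Nuclear genes of the respiratory complexes and ATP synthase were also close to even, with a median of -0.10. At least 1.5-fold higher in LM8 were 3 of 79 (3.80%) and lower were 10 (12.7%), beside 15.3% and 20.3% of all measured genes. Genes were put on this list and in a complex by name alone, which need not give the place of the product. The largest differences were those of Ndufa4l2, at least 7.37-fold higher with 155 in LM8 and Dunn below its floor, and of Cox6a2 (248 in LM8 and 936 in Dunn, -1.92), Cox7a1 (-1.28) and Cox7a2l (-1.09). By complex so named the medians were -0.06 for 35 complex I genes, -0.08 for 4 of complex II, -0.06 for 8 of complex III, -0.23 for 15 of complex IV and -0.12 for 17 of the ATP synthase. The proteins of the cytosolic ribosome gave a different picture: 36 of 40 lay below 0, where 6545 of all 11830 measured genes did. Their median was -0.37, and 4 (10%) were at least 1.5-fold lower and 1 (2.5%) higher. The largest cytosolic differences were Rps27 (216 in LM8 and 55.1 in Dunn, 1.97), Rpl14 (-1.58), Rpl39 (-1.39) and Rpl37 (-1.03), each on a single measured probe set. Under quantile normalization the cytosolic median was -0.02 and that of the 76 mitochondrial genes -0.03, so the 2 ribosomes were not apart there. With plain-suffix probe sets only, the cytosolic median was -0.16. The mitochondrial genes had a median between -0.03 and 0.03 under quantile normalization and 7 other settings. With lowess centring the cytosolic median was -0.24 and the mitochondrial one -0.02. With arrays centred on their medians these were -0.21 and 0.14, and with scaling on hybridisation controls -0.12 and 0.23. The size of the cytosolic difference thus depends on the scaling, and the 2 ribosomes came together only under quantile normalization.

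**Figure D3:**
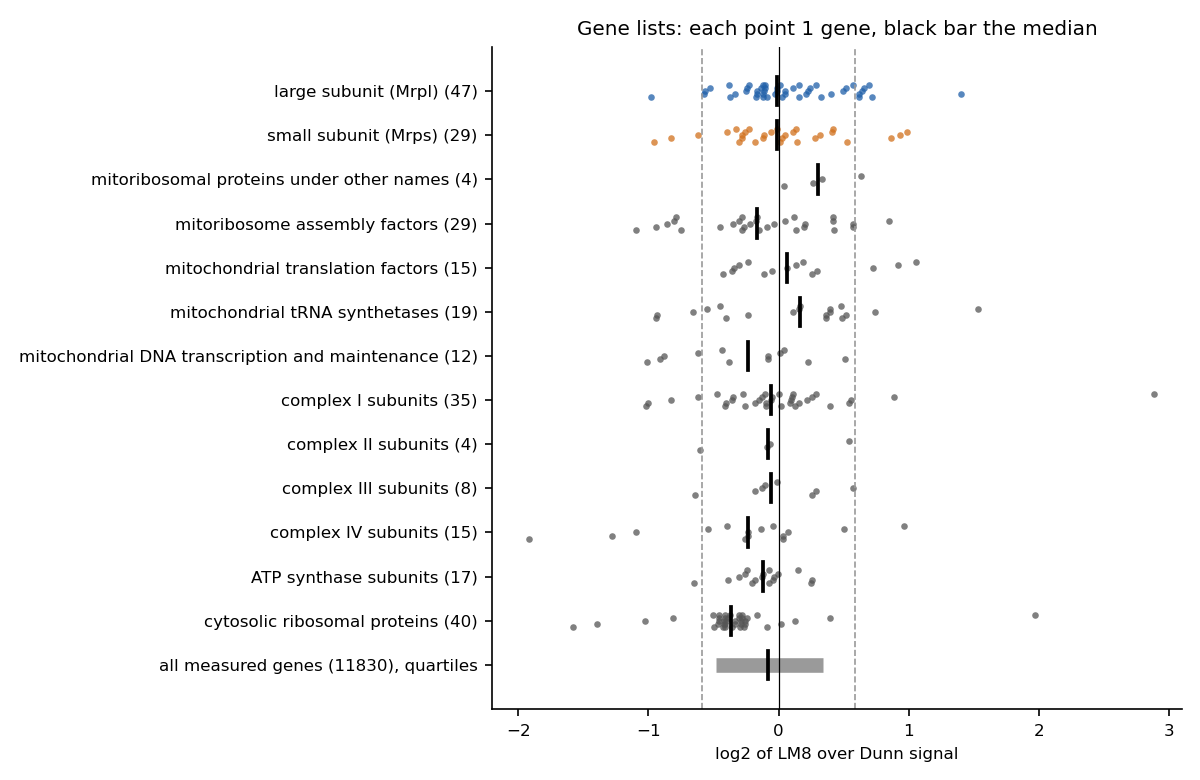
Log2 of LM8 over Dunn signal (horizontal) by gene list, each point 1 measured gene, the black bar the list's median, the number of genes in brackets, and dashed lines at 1.5-fold. The 2 mitochondrial ribosome subunits centre on -0.01, mitochondrial DNA transcription and maintenance on -0.23 and the cytosolic ribosome on -0.37; the grey bar spans the quartiles of all 11830 measured genes.

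Position on the chromosomes was set beside these ratios, since the rule made no use of it. Each gene was compared with the median of the 25 measured genes on either side in the gene order of GRCm38.p6. The 12 genes whose neighbours had a median above 0.1 all lay above 0 themselves, with a median of 0.55, and 5 of them were at least 1.5-fold higher. The 37 genes whose neighbours had a median below -0.1 lay below 0 in 26 cases, with a median of -0.12, 1 of them at least 1.5-fold higher and 1 lower. The 27 between had a median of 0.05, with 4 higher and 3 lower. Of all measured genes, whatever their neighbours, 15.3% were higher and 20.3% lower. The same split by neighbours is not given here for all measured genes.

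Over the 76 genes the log2 ratio and the median of the neighbours had a Pearson r of 0.51 and a Spearman rho of 0.50, and 54 of 76 had the same sign. Over 11768 measured genes with a position these were 0.22 and 0.24. That set, unlike the 76, includes dim genes with an array at its floor. These are descriptions across genes: all points come from the same 2 arrays, and nearby genes share neighbours. With the probe set nearest to no difference the r of the 76 genes was 0.36.

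By chromosome, the 3 genes on chromosome 14, Mrps16, Mrpl57 and Mrpl52, had log2 ratios of 0.99, 0.71 and 0.33, where their neighbours had medians of 0.42, 0.60 and 0.38 and the chromosome as a whole 0.34. On chromosome 4, 4 genes had a median of 0.53 and the chromosome 0.18, and on chromosome 3, 5 genes including Mrpl47 and Mrps28 had 0.28 and the chromosome 0.22. On chromosome 6, the 6 genes and the chromosome had the same median of -0.25. The 11 genes on chromosome 11 had -0.12 and the chromosome -0.14. The genes and their chromosome had medians of opposite sign on chromosome 1 (0.11 and -0.18), chromosome 2 (0.08 and -0.11), chromosome 7 (0.01 and -0.04), chromosome 10 (0.26 and -0.14) and chromosome 13 (-0.12 and 0.02), and of the same sign on the other chromosomes that hold any of the 76 genes. Some genes stood far from their surroundings: Mrps6 had -0.96 beside neighbours at 0.06, Mrpl23 had -0.98 beside -0.03, and Mrps9 had 0.86 beside -0.03.

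**Figure D4:**
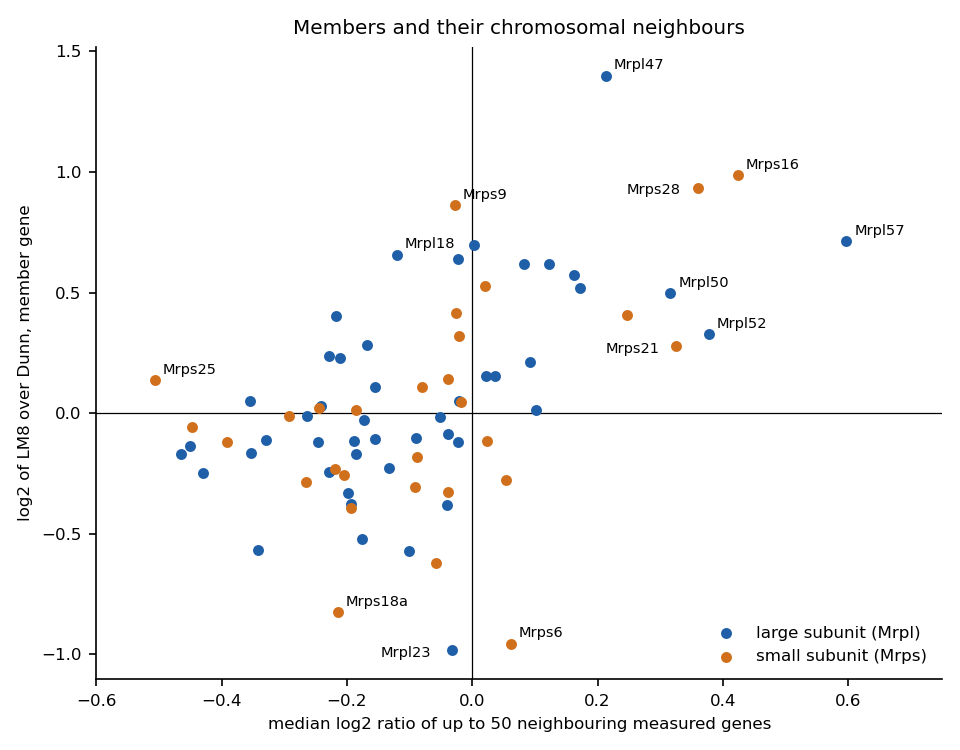
Log2 of LM8 over Dunn signal of each gene (vertical) against the median log2 ratio of up to 50 neighbouring measured genes (horizontal), large subunit in blue and small subunit in orange. Genes with neighbour medians above 0.1 all lie above 0, and Mrps6, Mrpl23 and Mrps9 lie far from 0 with neighbours near it.

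Some of these genes start back to back with another gene, with little sequence between the starts. A start on the opposite strand within 1000 bases upstream was found for 25 of the 76 genes, and in 20 such pairs both genes were measured, 42 to 935 bases apart. The log2 ratios of the 2 genes had the same sign in 12 pairs and opposite signs in 8, with a Pearson r of 0.26 and a Spearman rho of 0.28 over the 20 pairs. In some pairs both genes differed the same way. Mrpl43 (-0.57) starts 116 bases from Twnk (-1.01), and Mrpl40 (0.62) starts 113 bases from Hira, a histone chaperone gene with 114 in LM8 and 69.7 in Dunn (0.71). In others the partner was near equal: Mrpl47 (1.40) stands 308 bases from Ndufb5, a complex I gene with 1711 in LM8 and 1599 in Dunn (0.10), and Mrpl18 (0.66) is paired with Tcp1, a chaperonin gene (0.08). Mrps18c (0.42) and the helicase gene Helq (-0.65) lay on opposite sides of 0. Mrpl46 of the large subunit (0.05) and Mrps11 of the small one (0.32) start 42 bases apart.

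The stretches between 4 such pairs are shown because each is the whole sequence between the starts of genes whose values are given here, and because they differ in the motifs they hold. They are RefSeq sequences of GRCm38.p6, 5′ to 3′ on the strand of the first gene named: chr7:78783090-78783130 on the plus strand between Mrps11 and Mrpl46, chr19:45006443-45006557 on the minus strand between Mrpl43 and Twnk, chr16:18876638-18876749 on the minus strand between Mrpl40 and Hira, and chr13:14613038-14613241 on the minus strand between Mrpl32 and the proteasome gene Psma2. Capitals mark an ETS core (CCGGAAG) in the second and NRF1 cores (GCATGCG, or its reverse complement) in the fourth.
Mrps11 to Mrpl46: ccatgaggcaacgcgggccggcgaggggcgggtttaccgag
Mrpl43 to Twnk: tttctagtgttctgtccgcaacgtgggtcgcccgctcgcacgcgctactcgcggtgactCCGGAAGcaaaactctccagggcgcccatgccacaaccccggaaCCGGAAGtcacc
Mrpl40 to Hira: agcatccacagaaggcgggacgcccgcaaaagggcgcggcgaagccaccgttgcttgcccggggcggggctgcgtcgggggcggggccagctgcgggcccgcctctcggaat
Mrpl32 to Psma2: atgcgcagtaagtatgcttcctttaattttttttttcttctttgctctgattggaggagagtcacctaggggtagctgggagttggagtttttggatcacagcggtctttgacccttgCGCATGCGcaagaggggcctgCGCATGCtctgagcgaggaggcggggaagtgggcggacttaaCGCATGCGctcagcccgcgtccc

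The ETS core stands at 2 places in the Mrpl43 to Twnk stretch, whose genes both had lower signals in LM8. The NRF1 core is read 5 times, on either strand, in the 3 capital stretches between Mrpl32 and Psma2. Mrpl32 had 568 in LM8 and 510.3 in Dunn (0.15), and Psma2 had 1833 in LM8 and 1144 in Dunn (0.68). The Mrps11 to Mrpl46 and Mrpl40 to Hira stretches hold none of the motifs searched.

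Across the genes, 3 motifs of factors known to drive nuclear genes of mitochondria were searched on both strands, from 250 bases before to 50 bases after each start. RefSeq promoters were at hand for 67 of the 76 genes, and a gene with several starts was counted if any of them held the motif. An ETS core (CCGGAAG) was found in 25 of them (37.3%), in 20.1% of 9583 genes measured on the arrays and in 9.93% of all 27025 genes with a promoter. In 22 of the 25 it lay within 100 bases before the start or after it. An NRF1 core (GCATGCG) was found in 8 (11.9%), in 7.32% of the measured genes and in 4.01% of all. In 7 of these 8 the sense and antisense readings overlap. A YY1 core (AAGATGG) was found in 13 (19.4%), in 8.44% of the measured genes and in 7.28% of all, and in 8 of the 13 it lay after the start. The ETS and YY1 cores share letters and could overlap, which occurred in none of the 67.

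At least 1 of the 3 motifs was found in 37 of the 67 genes (55.2%), in 31.7% of the measured genes and in 19.3% of all genes. By direction, 5 of 9 genes at least 1.5-fold higher in LM8 held one, 2 of 4 lower genes and 30 of 54 genes between. For the ETS core alone the counts were 4 of 9, 2 of 4 and 19 of 54. Large subunit genes held an ETS core in 14 of 41 cases and small subunit genes in 11 of 26. Promoters of cytosolic ribosomal protein genes held it in 51.4% of 35.

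The upstream 250 bases of Mrpl47, the gene with the highest ratio, and of Mrps18a, a lower one, are shown to set a promoter without any of these motifs beside one with an ETS core. Both are RefSeq sequences of GRCm38.p6 on the gene's strand: chr3:32736756-32737005 on the minus strand for Mrpl47 and chr17:46110754-46111003 on the plus strand for Mrps18a, with the ETS core in capitals.
Mrpl47: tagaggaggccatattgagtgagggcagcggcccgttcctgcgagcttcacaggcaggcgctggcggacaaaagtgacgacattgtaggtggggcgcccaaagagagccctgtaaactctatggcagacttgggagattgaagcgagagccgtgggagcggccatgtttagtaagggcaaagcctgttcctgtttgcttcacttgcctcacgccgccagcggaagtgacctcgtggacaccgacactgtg
Mrps18a: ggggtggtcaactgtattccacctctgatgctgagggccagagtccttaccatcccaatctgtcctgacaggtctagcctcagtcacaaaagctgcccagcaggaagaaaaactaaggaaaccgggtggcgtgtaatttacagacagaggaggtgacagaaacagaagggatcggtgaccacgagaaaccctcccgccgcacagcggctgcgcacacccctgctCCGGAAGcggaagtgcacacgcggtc

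In the Mrps18a sequence the core begins 26 bases before the start. A match or its absence describes these letters only.

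The level of all these values depends on how the arrays were scaled. Centring the arrays on their medians raised the median of all genes by 0.15 and scaling on the 12 bacterial hybridisation controls raised it by 0.24, so a log2 ratio below 0 by less than these amounts turns positive there. Both add the same amount to every log2 ratio. By construction, the 76 genes therefore stayed 0.07 above the median of all genes, and large and small subunit moved together. Under the other settings this gap ran between 0.01 (floor at the 75th percentile, for example) and 0.11 (only probe sets with the plain suffix, for example). Quantile normalization and lowess centring also gave 0.01. With the hybridisation controls 17 of the 76 genes were at least 1.5-fold higher and 2 lower, beside 24.9% and 12.7% of all genes.

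**Figure D5:**
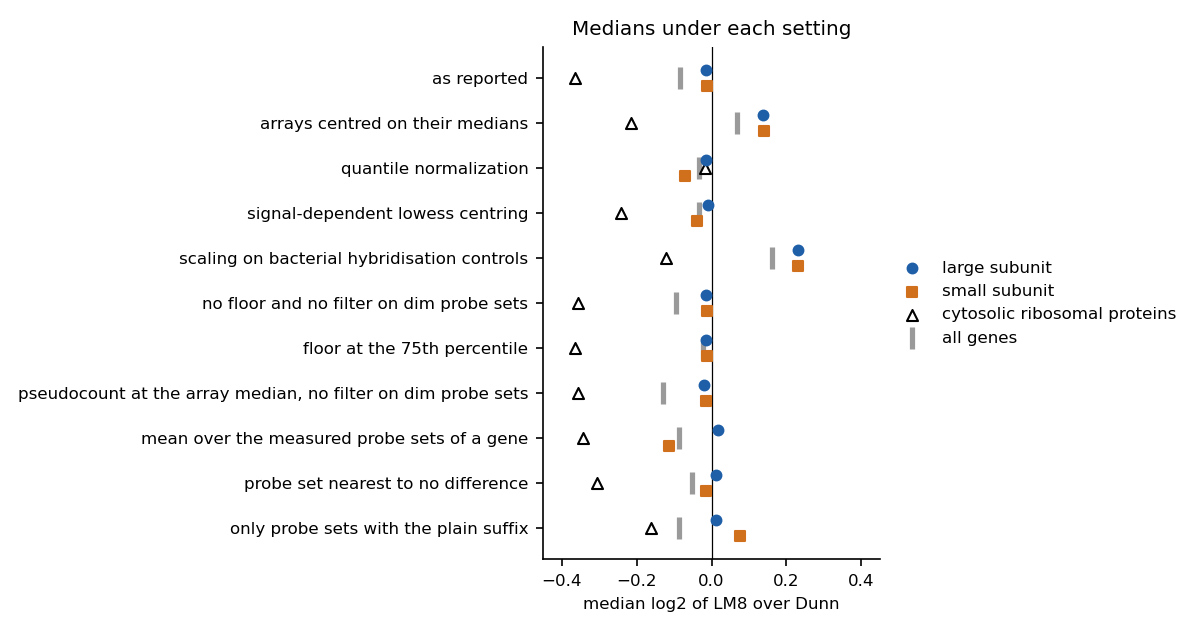
Median log2 of LM8 over Dunn (horizontal) under each processing setting (rows) for the large subunit (blue circles), the small subunit (orange squares), cytosolic ribosomal proteins (triangles) and all genes (grey bars). Both subunits lie at -0.01 as reported, at 0.14 with arrays centred on their medians and at 0.23 with the hybridisation controls.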

How the data were processed

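Probe set intensities were deposited by the authors and computed with MAS5, per the submitters' processing notes; version and settings are not given in the sources used here. On both arrays the 2% trimmed mean was 100. After removal of 64 controls, both arrays were put on a common 2% trimmed mean. Signals under an array's median were set to it. Of 45037 probe sets, 25144 were measured, which gave 11830 genes. Gene symbols came from the platform annotation, updated by gene identifier (99.4% matched); 4 probe sets listing a mitochondrial ribosomal gene among several symbols were left out. Folds of 1.5 and 2 are counting limits. Genes, lists and rules were chosen with earlier results of these data known. Named in full were the 8 highest and 8 lowest genes, those past 1.5-fold, those whose probe sets spanned over 1, and up to 4 genes per other list with the largest difference; other genes are named to complete a site or group, after their values were seen. Alternatives covered scaling, floor, gene summary and probe set type. The steps were tested on simulated data with changes well past 2-fold in bright genes, so that test does not cover calls near 1.5-fold. Protein sequences were not used here. The number of arrays limits the precision. Computation used pandas 2.3.3 with numpy 2.4.6, statsmodels 0.14.6 and scipy 1.17.1 under Python 3.11.15; figures used matplotlib 3.10.9.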

Additional observations from a re-analysis of the deposited data

How the results depend on the processing

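No paired analysis was possible because each line had 1 array. Of the recomputed medians, counts and neighbour relations, 75 stayed close to the value given and 20 moved. The medians near 0, and their difference between subunits, changed sign under some settings. The medians of all, large and small subunit genes were 0.14 each with arrays centred on their medians and 0.23 each with the hybridisation controls. Averaging probe sets gave -0.11 for the small subunit and 0.13 for large minus small. The 10 genes at least 1.5-fold higher became 17 with the hybridisation controls and 6 with the probe set nearest to no difference, and the 4 lower became 2 with the hybridisation controls. At 2-fold, 4 genes were higher with centring on medians and 4 with the hybridisation controls, 0 with averaged probe sets and 0 with the probe set nearest to no difference; 1 was lower under quantile normalization, 1 under lowess centring and 1 with plain-suffix probe sets only. Pearson r with the neighbours was 0.41 without floor and filter, 0.36 with the probe set nearest to no difference and between 0.43 and 0.53 otherwise; its alternatives were added after seeing the data. Centring and scaling shift all ratios by construction; for the other changes the cause was not tested. For single genes, 130 recomputed values stayed close and 7 moved, all of them lower ratios for Mrpl47 (0.89 and 0.37), Mrpl48 (0.26), Mrpl57 (0.23) and Mrps9 (0.50, 0.07 and 0.49) under another choice of probe sets. Of these 14 genes, 8 had a single measured probe set, so averaging or choosing among probe sets could not move them. Some values counted as close still fell short of 1.5-fold. These were Mrps23 at -0.47 with arrays centred on their medians and -0.38 with the hybridisation controls, and Mrps18a at -0.58 with those controls. Mrpl48 (0.46) and Mrpl57 (0.47) did so with averaged probe sets. Under quantile normalization Mrpl42 did so narrowly, at 0.580 where the limit is 0.585. Signal over background limits the dim probe sets, 17 of which were below both floors.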
